A study of Mus musculus with 6 samples.

Results

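Complex I, the NADH dehydrogenase of the inner mitochondrial membrane, was followed through the messenger RNA of its nuclear encoded structural subunits. The members were 37 listed genes, from Ndufa1 to Ndufv3, matched by symbol among the 50763 genes of the count table, and all 37 were found and tested. RNA was sequenced from mouse embryonic fibroblasts, the adherent connective tissue cells that grow out of a dissociated embryo, taken at embryonic day E13.5 and cultured briefly. Each of the 2 genotypes had 3 libraries. K68R cells came from mice in which CRISPR editing had replaced a lysine of SOD2 by arginine, and WT cells from mice with unedited SOD2, all of strain C57BL/6J. SOD2 is the manganese enzyme that removes superoxide in the mitochondrial matrix. Nothing in the labels says how many embryos, litters or founder lines stand behind a genotype.

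Complex I takes electrons from NADH, passes them along a chain of iron-sulfur clusters to ubiquinone and pumps protons out of the matrix. It has the shape of an L. A matrix arm holds the NADH-binding N module and the ubiquinone-reducing Q module, and a membrane arm holds the pumps, whose central subunits are encoded in mitochondrial DNA. Core subunits carry out the reaction, while accessory subunits surround and stabilise them and are needed for assembly. The enzyme is also a main site of superoxide formation in mitochondria, and superoxide is the substrate of SOD2.

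Of the 37 genes, 36 fell in K68R and 1, Ndufv3, rose, by edgeR's quasi-likelihood test. The fit used TMM normalization over all genes, and a gene was called where its p, adjusted by Benjamini-Hochberg over the 16730 genes tested, was under 0.05. The genotypes differed across most of the transcriptome, so this count is to be read against a background in which 40.5% of all genes tested were called lower and 40.8% higher. The median change of the 37 was -0.57 on the log2 scale (K68R over WT), against -0.01 over all genes tested. The 36 genes that fell did so by between 1.15-fold (Ndufa10) and 2.02-fold (Ndufa5), with a median of 1.49-fold. In each of these 36 genes all 3 K68R libraries lay below all 3 WT libraries, an arrangement found in 41.0% of all genes tested. Expression is given in CPM, that is, counts divided by TMM-normalized library size. The summed CPM of the 37 genes was 2080, 2099 and 2052 in the K68R libraries and 3087, 3091 and 3029 in the WT libraries, which is 2077 ± 23.7 against 3069 ± 34.5 (SD, n = 3 each). In bulk RNA, fewer cells of a type and less RNA per cell cannot be told apart.

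**Figure D1:**
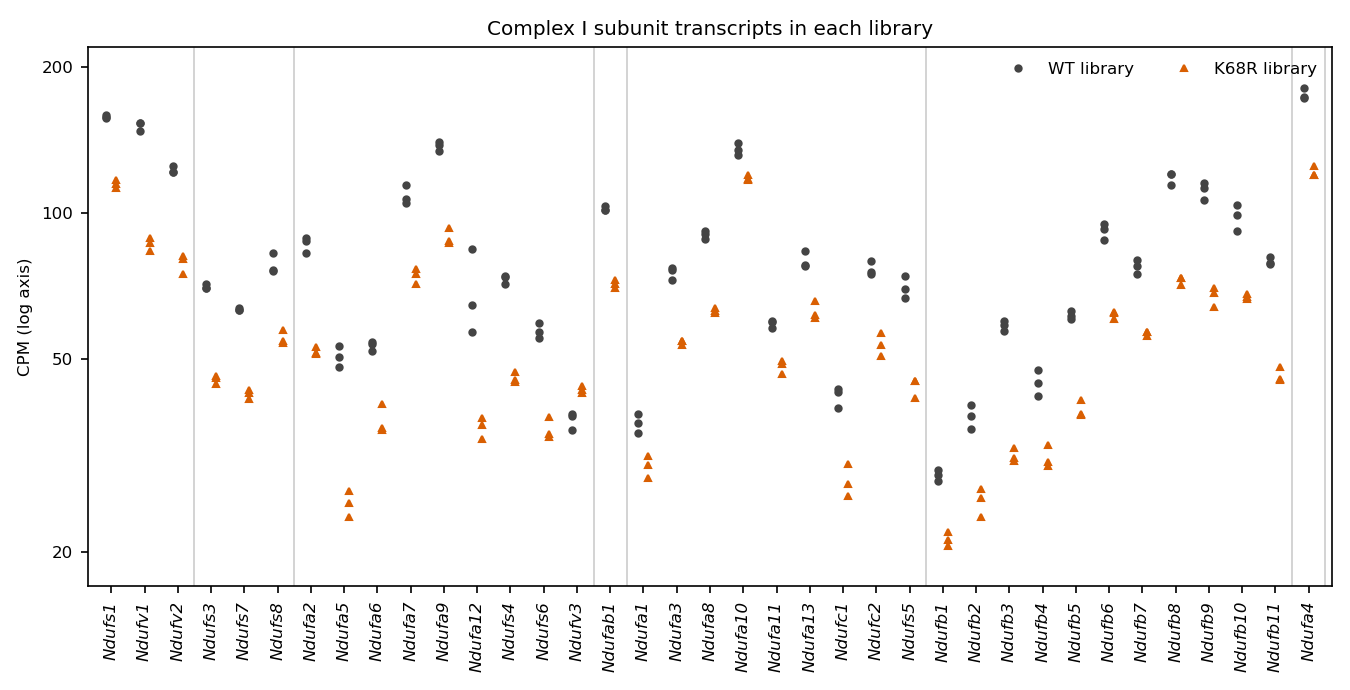
CPM on a log axis of each of the 37 complex I subunit genes, with 1 point per library (circles, WT; triangles, K68R; 3 libraries each). Vertical lines separate, from left to right, core N module, core Q module, accessory matrix arm, acyl carrier, proximal membrane arm, distal membrane arm and Ndufa4; K68R libraries lie below WT libraries in 36 genes and above them in Ndufv3.

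The size of the difference depended on exon length in the whole data set, and the subunit genes are short. Over all genes tested, log2 exonic length and log2 fold change had a Pearson r of 0.32 across 16730 genes, which are not independent replicates. The median exonic length was 908 bases in the 37 genes, with a range of 339 to 3657, against 3519 bases over all genes tested. The counts are therefore given beside genes of the same length class, and again after 3 other ways of scaling.

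Library totals ran from 26200088 to 40691447 counted read pairs, so each subunit gene rested on 568 to 7111 read pairs in a library. Libraries of a genotype were close, and the biological coefficient of variation shared by all genes was 2.19%. All 12 fibroblast markers were tested, 5 rising and 6 falling, and their summed CPM was 18600 to 18640 in K68R and 9633 to 9798 in WT. Summed CPM of other marker lists also differed between genotypes. It was 131.8 to 139.7 (K68R) and 154.7 to 156.5 (WT) for macrophage markers, with 1 of 7 rising and 3 falling, and 96.1 to 97.9 and 24.7 to 27.2 for endothelial markers, with 2 of 5 rising and Pecam1 under 1 CPM throughout. It was 18.4 to 20.5 and 46.0 to 47.6 for epithelial markers, all 6 of which fell, and 10.8 to 11.1 and 100.6 to 106.8 for adipocyte markers, of which 5 of 6 were tested and fell. It was 266 to 268 and 92.8 to 95.6 for skeletal muscle markers, all 7 of which rose, and 50.8 to 53.2 and 28.2 to 29.5 for neural markers, with 3 of 4 tested and risen. All 6 erythroid markers were under 1 CPM. The part of these shifts in the subunit counts was not tested. Sod2 itself, at 47.2 ± 1.62 CPM in K68R and 69.96 ± 1.57 in WT (SD, n = 3 each), fell by 0.57 on the log2 scale. A count per gene cannot show the edited codon, so it does not check the genotype labels.

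The 6 core subunits of the list, the catalytic chain of the matrix arm, all fell, with a median log2 change of -0.61. The 3 N module subunits had a median of -0.64 and the 3 Q module subunits a median of -0.58. Ndufv1, which binds FMN and NADH and is the entry point of electrons, had the largest change of the core in the TMM fit. Its CPM was 86.9, 88.8 and 83.4 in K68R and 153.2, 153.0 and 147.4 in WT. The groups were far apart, and the gene fell 1.75-fold (log2 change -0.81, SE 0.03, edgeR adjusted p = 8.9e-38). The gene lies at chr19:4057499-4062755 on the minus strand in mm39, the build of the counts. Ndufv2, the iron-sulfur partner of Ndufv1 in the N module, had CPM of 74.7, 81.5 and 80.3 in K68R and 121.7, 124.8 and 121.6 in WT. It fell 1.55-fold (edgeR adjusted p = 4.7e-30), and the lowest K68R library was replicate 1. Ndufs1, the largest core subunit, which carries iron-sulfur clusters of the N module, had CPM of 112.6, 116.9 and 114.9 in K68R and 156.8, 158.1 and 159.5 in WT. It has the most exonic bases of the list (3657) and fell 1.38-fold (edgeR adjusted p = 3.2e-26), the smallest change of the core in the TMM fit. With offsets for exon length it was instead the largest of the core, at -0.75 against -0.63 for Ndufv1. It was again the smallest with offsets for length and GC content (-0.12) and with libraries scaled on genes under 2000 exonic bases (-0.03).

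In the Q module, Ndufs3, a core subunit without a cluster and an early building block of the arm, had CPM of 44.4, 45.7 and 46.1 in K68R and 71.4, 70.1 and 70.1 in WT. It fell 1.55-fold (edgeR adjusted p = 6.0e-26), and neither genotype spread over more than 2 CPM. Ndufs7 holds the last cluster of the chain, next to the ubiquinone site. It stood at 42.5, 43.1 and 41.4 CPM in K68R and 63.6, 63.1 and 62.95 in WT. The difference was 1.49-fold (edgeR adjusted p = 4.1e-23), with WT libraries nearly equal. Ndufs8, which carries the pair of clusters before that of Ndufs7, had CPM of 54.4, 57.3 and 54.0 in K68R and 76.3, 82.7 and 76.0 in WT. It fell 1.42-fold (edgeR adjusted p = 1.1e-20), and replicate 2 was the highest library of each genotype. The core genes made up 19.98%, 20.6% and 20.5% of the summed CPM of the 37 genes in K68R and 20.8%, 21.1% and 21.05% in WT. These shares did not overlap, but the gap between the means (20.4% and 20.99%) was small. Summed over its genes, the core was 1.52-fold lower and the accessory set 1.47-fold lower in K68R.

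Among the 31 accessory subunits, counted here with Ndufab1 and Ndufa4, 30 fell and 1 rose, with a median log2 change of -0.55. The matrix arm had 9 of them, with 8 falling, Ndufv3 rising and a median of -0.67. Ndufa5, a small subunit of the Q module, had the largest change of the 37 genes in the TMM fit, with CPM of 26.7, 25.3 and 23.6 in K68R and 53.1, 50.4 and 48.2 in WT. The fall was 2.02-fold (log2 change -1.01, SE 0.05, edgeR adjusted p = 1.3e-30), and no K68R library came near a WT library. The gene lies at chr6:24518661-24527689 on the minus strand in mm39. Ndufa2, a thioredoxin-like subunit of the N module, had CPM of 51.4, 52.8 and 51.1 in K68R and 87.4, 88.8 and 82.7 in WT. Ndufa9, a nucleotide-binding subunit at the junction of the arms, had CPM of 86.9, 93.1 and 87.4 in K68R and 134.0, 140.0 and 138.1 in WT. Both were lower in every K68R library, by 1.67-fold for Ndufa2 (edgeR adjusted p = 2.5e-30) and 1.54-fold for Ndufa9 (edgeR adjusted p = 1.3e-30). Ndufs4 and Ndufs6, late-joining N module subunits whose human counterparts are disease genes, fell by 0.68 and 0.67 on the log2 scale, from 73.2 ± 1.49 to 45.7 ± 1.12 CPM and from 57.1 ± 2.05 to 35.8 ± 1.83 CPM (SD, n = 3 each). Ndufa6, which docks an acyl carrier through its LYR motif, and Ndufa7 fell by 0.52 and 0.55, from 53.3 to 37.4 and from 108.7 to 74.3 mean CPM.

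Ndufv3, a small N module subunit with splice forms that differ between tissues, went the other way. Its CPM was 43.2, 44.0 and 42.6 in K68R and 38.4, 38.1 and 35.8 in WT. Every K68R library was above every WT library, and the rise was small, 1.16-fold (log2 change 0.21, SE 0.04, edgeR adjusted p = 8.4e-06). The gene lies at chr17:31739089-31750300 on the plus strand in mm39 and has 1580 exonic bases. Per kilobase of exon it was the second lowest member in WT, at 23.7 CPM per kb, and stood at 27.4 in K68R. Counts per gene do not separate its splice forms.

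Ndufab1, the mitochondrial acyl carrier protein, sits in both arms of complex I and also serves mitochondrial fatty acid synthesis. Its CPM was 71.2, 72.6 and 70.1 in K68R and 103.6, 101.5 and 101.5 in WT. The libraries of a genotype were within 3 CPM of each other, and the fall was 1.43-fold (edgeR adjusted p = 5.8e-25).

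The 9 accessory subunits of the proximal membrane arm all fell, with a median log2 change of -0.48. Ndufs5, a small intermembrane space subunit with paired cysteines, had CPM of 45.0, 45.0 and 41.5 in K68R and 69.8, 74.1 and 66.8 in WT. Ndufa8, of the same cysteine-paired kind, had CPM of 63.8, 62.1 and 62.8 in K68R and 91.7, 90.4 and 88.3 in WT. Ndufc2, a membrane-spanning subunit, had CPM of 50.8, 53.5 and 56.5 in K68R and 79.7, 74.8 and 75.6 in WT. In all 3 genes the genotypes were apart. The falls were 1.60-fold for Ndufs5 (edgeR adjusted p = 5.0e-25), 1.43-fold for Ndufa8 (edgeR adjusted p = 7.8e-24) and 1.43-fold for Ndufc2 (edgeR adjusted p = 6.1e-21). The 4 smallest falls of the list in the TMM fit were in this arm. Ndufa10, a kinase-related subunit, had CPM of 119.9, 117.1 and 117.6 in K68R and 132.0, 134.9 and 139.3 in WT. Its change in that fit was the smallest of the list, 1.15-fold (log2 change -0.20, SE 0.03, edgeR adjusted p = 1.1e-09). Ndufa11, Ndufa1 and Ndufa13 followed at -0.29, -0.30 and -0.35, and all 4 changed direction on the short gene scale. Ndufa1 is X-linked, and Ndufa13 is also known as GRIM-19, a partner of STAT3. Their mean CPM in WT and K68R was 59.1 and 48.3 for Ndufa11, 36.9 and 30.1 for Ndufa1, and 79.8 and 62.8 for Ndufa13. The remaining Ndufa3 and Ndufc1 fell by 0.48 and 0.59, from 75.4 to 54.2 and from 41.9 to 28.0 mean CPM.

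The 11 distal membrane arm subunits, Ndufb1 to Ndufb11, all fell, with a median log2 change of -0.58 and a range of -0.89 to -0.44. Ndufb3, a membrane-spanning subunit, had CPM of 30.8, 32.8 and 31.3 in K68R and 60.01, 58.7 and 57.2 in WT. Ndufb11, an X-linked membrane-spanning subunit, had CPM of 48.1, 45.3 and 45.5 in K68R and 81.0, 78.8 and 78.6 in WT. Ndufb8, whose protein is widely used as a marker of assembled complex I, had CPM of 73.4, 71.2 and 73.3 in K68R and 120.6, 120.2 and 114.1 in WT. No library of either genotype came near the other. The falls were 1.85-fold for Ndufb3 (edgeR adjusted p = 5.1e-31), 1.72-fold for Ndufb11 (edgeR adjusted p = 3.6e-31) and 1.63-fold for Ndufb8 (edgeR adjusted p = 2.0e-32). Ndufb1 has the fewest exonic bases of the list, 339. Its CPM of 22.0, 20.6 and 21.2 in K68R and 28.8, 29.5 and 28.0 in WT made it the lowest member by count in both genotypes, and it fell 1.36-fold (edgeR adjusted p = 1.9e-11). The other 7 ran from Ndufb9, which carries an LYR motif that docks the acyl carrier, at -0.73, to Ndufb7, a cysteine-paired subunit of the intermembrane space, at -0.46. Between them were Ndufb5 (-0.65), Ndufb2 (-0.58), Ndufb6 (-0.57), Ndufb10 (-0.55) and Ndufb4 (-0.52). Ndufb9 went from 111.6 ± 4.49 to 67.5 ± 3.08 mean CPM and Ndufb7 from 77.6 ± 2.53 to 56.5 ± 0.55 (SD, n = 3 each). All 7 fell, with edgeR adjusted p of 2.3e-16 (Ndufb4) or less.

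Ndufa4 was first described as a complex I subunit and is now placed in cytochrome oxidase, the terminal enzyme of the chain. It was the member with the most transcript per length. Its CPM was 119.7, 124.8 and 119.8 in K68R and 172.5, 181.3 and 173.5 in WT, and the fall of 1.45-fold (edgeR adjusted p = 1.6e-29) was of the same size as that of the other members. Without Ndufa4, 35 of 36 genes fell and the median log2 change was -0.58.

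Levels of the 37 genes per kilobase of exon covered a wide range and had a similar order in both genotypes. Ndufa4 stood at 353.6 CPM per kb in WT and 244.4 in K68R, Ndufa3 was next at 214.7 and 154.4, and Ndufa11 was last at 22.2 and 18.2. Across the 37 genes, log2 CPM per kb in WT and K68R had a Pearson r of 0.96, a description over genes that share libraries and lengths. The largest shift in rank was that of Ndufa10, from place 22 in WT to place 13 in K68R. Ndufa5 moved from place 18 to 26. Exonic length here is that of all annotated isoforms merged, which need not be the length of the transcripts present. Ndufa11 has 2661 such bases.

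The promoters of genes for mitochondrial proteins are known for binding sites of NRF1, of ETS family factors such as GABP, of YY1, of the oestrogen-related receptors and of SP1. These motifs were searched on both strands in the RefSeq windows of GRCm38.p6 that run from 250 bases before to 50 bases after each start. Windows were matched for 34 members, and Ndufs1, Ndufa2 and Ndufb9 had none. The YY1 letters AAGATGGC (GCCATCTT on the other strand) were found in 7 of 34 members (20.6%) against 3.19% of 27025 genes. All 7 matches were on the gene's own strand, 23 to 46 bases after the start, and the letters include ATG. A YY1 match in this place shares its letters with a known initiator of translation in short leader sequences, and the pair cannot be told apart here. The sites are shown in 30 bases around each match, with AAGATGGC in capitals. Of the motifs searched, this one had the largest share in members beyond that of all genes. Its share in other genes for mitochondrial proteins was not counted.
Ndufs7, chr10:80249462-80249491, plus strand: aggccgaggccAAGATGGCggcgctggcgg
Ndufa9, chr6:126849097-126849126, minus strand: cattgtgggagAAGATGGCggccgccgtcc
Ndufs4, chr13:114388045-114388074, minus strand: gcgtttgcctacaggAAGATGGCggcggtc
Ndufs6, chr13:73328433-73328462, minus strand: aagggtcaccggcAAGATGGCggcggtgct
Ndufa3, chr7:3617384-3617413, plus strand: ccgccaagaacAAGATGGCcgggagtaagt
Ndufc1, chr3:51408915-51408944, minus strand: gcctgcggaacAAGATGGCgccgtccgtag
Ndufb8, chr19:44555393-44555422, minus strand: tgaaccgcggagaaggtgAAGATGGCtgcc

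The 7 genes with the YY1 letters changed by -0.70 (Ndufb8) to -0.48 (Ndufa3), within the range of the other members. The NRF1 core GCGCATGC (GCATGCGC on the other strand) was found in 3 of 34 members (8.82%) against 3.05% of all genes, in Ndufa6, Ndufa8 and Ndufa11. The promoter stretches of 120 bases before the start are given for these 3, with the NRF1 letters in capitals, as they hold the binding letters most often linked to respiratory chain genes. In Ndufa11 the letters and their other-strand form overlap by all but 2 bases.
Ndufa6, chr15:82354292-82354411, minus strand: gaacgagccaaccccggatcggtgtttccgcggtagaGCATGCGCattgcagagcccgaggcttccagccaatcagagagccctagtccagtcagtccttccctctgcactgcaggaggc
Ndufa8, chr2:36049339-36049458, minus strand: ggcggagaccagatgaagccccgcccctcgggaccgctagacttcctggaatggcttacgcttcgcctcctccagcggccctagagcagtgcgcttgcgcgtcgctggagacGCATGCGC
Ndufa11, chr17:56717642-56717761, plus strand: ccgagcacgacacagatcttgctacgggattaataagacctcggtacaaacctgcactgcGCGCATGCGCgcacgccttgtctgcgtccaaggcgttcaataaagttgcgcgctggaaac

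Ndufa6 and Ndufa8 both fell by 0.52 and Ndufa11 by 0.29 on the log2 scale in the TMM fit. With length and GC offsets they were at 0.02, 0.06 and -1.13, and that of Ndufa11 was then the largest change of the 37. The remaining motifs were closer to their frequency in all genes. The ETS letters CCGGAAGT were in Ndufs3 alone (2.94% against 4.31% of all genes). The short ERR site AAGGTCA was in Ndufs5, Ndufb2 and Ndufb4 (8.82% against 5.38%). The SP letters GGGCGG were in 15 members (44.1% against 38.2%). A match is a run of letters and no measure of binding.

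The subunit genes were set beside genes of the same length class, and the medians were closest in the classes under 1000 bases. Under 600 exonic bases, all 8 members fell, against 54.6% of all genes tested of that class, and the median log2 changes were -0.50 and -0.58. From 600 to under 1000 bases, all 13 members fell, against 64.4%, with medians of -0.64 and -0.57. From 1000 to under 2000 bases, 11 of 12 fell, against 54.7%, with medians of -0.60 and -0.34. At 2000 bases and over, all 4 (Ndufs1, Ndufa11, Ndufb8 and Ndufab1) fell, against 34.8%, with medians of -0.49 and 0.17. The members' median thus changed little from class to class while that of all genes moved from below to above 0. Among the 37 members, log2 exonic length and log2 fold change had a Pearson r of 0.16 and a Spearman rho of -0.01, as a description across genes.

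**Figure D2:**
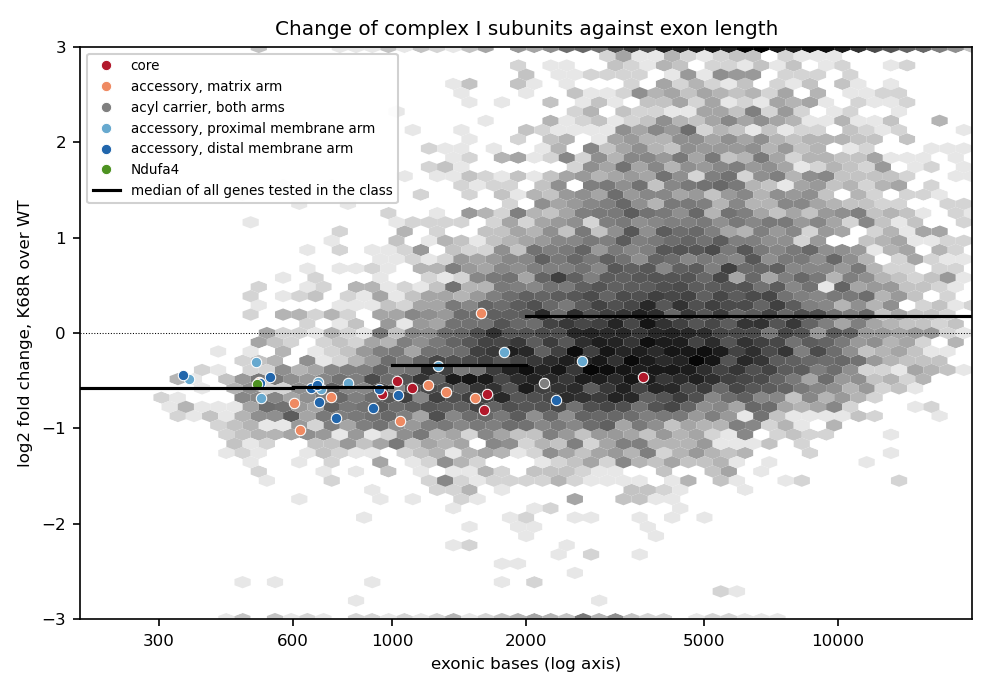
Log2 fold change (K68R over WT) against exonic bases on a log axis, with all genes tested as grey hexagons (darker where more genes fall, values beyond 3 drawn at the edge) and the 37 members as coloured points by group. Black bars are medians of all genes tested in each of the 4 length classes; members lie near the bar in the classes under 1000 bases and mostly under it in the longer classes.

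The counts were then read on 3 other scales, all in edgeR. With a smooth curve over exon length fitted per library and entered as offsets, 26 members were lower and 2 higher, against 48.7% and 31.7% of all genes tested, and the median of the 37 was -0.22 against -0.21 over all genes. When GC content was added to the curve, so that both length and GC were fitted, 19 were lower and 7 higher, against 42.5% and 33.7% of the genes with a GC value, and the median was -0.11 against -0.07. With library sizes scaled on genes under 2000 exonic bases, 23 were lower and 5 higher, against 19.0% and 60.0%, and the median was -0.14 against 0.43. This background is of all lengths, and long genes lay higher on this scale. From the shortest length class to the longest, the medians of all genes were -0.14, -0.13, 0.10 and 0.61, and those of the members -0.06, -0.20, -0.17 and -0.06. On both scales with offsets, the median of the 37 was therefore close to that of all genes, but not in every length class. With length offsets, members and all genes had medians of -0.01 and -0.15 under 600 bases, and of -0.61 and -0.25 at 2000 and over. With length and GC offsets these were 0.10 and -0.10, and -0.34 and -0.06. Among the 37, log2 exonic length and the change with length and GC offsets had a Pearson r of -0.48, as a description across genes. In the test of the TMM fit against a 1.5-fold change, 12 members were lower and 0 higher, against 14.9% and 26.1% of genes of all lengths. From the shortest length class to the longest, 1 of 8, 6 of 13, 4 of 12 and 1 of 4 members were lower in this test. Of all genes tested in these classes, 183 of 639, 307 of 907, 659 of 2816 and 1341 of 12368 were lower.

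The fall on all 4 scales was called in 15 of 37 members, against 18.8% of the 15665 genes with a value on each scale. Ndufv3 was higher on all 4, as were 22.1% of those genes. Both backgrounds are of all lengths and were not counted by length class. Genes under 1000 bases were lower more often than those of 2000 and over in the TMM fit and on the short gene scale. With either set of offsets they were lower less often. The 15 were 4 of the 6 core subunits (Ndufv1, Ndufv2, Ndufs3 and Ndufs7), 5 of 9 in the matrix arm (Ndufa2, Ndufa5, Ndufa7, Ndufa9 and Ndufs4), Ndufab1, and 5 of 11 in the distal membrane arm (Ndufb3, Ndufb5, Ndufb8, Ndufb9 and Ndufb11). None of the 9 proximal membrane arm subunits was among them. The difference between arms was not tested. Being lower on all 4 scales was not particular to complex I. Of the nuclear subunits of complexes II to V, 38 had a GC value and so a value on each scale. Of these, Sdhc and Sdhd of complex II and Uqcrc2, Uqcrfs1, Uqcrb and Uqcrq of complex III were lower on all 4. So were Cox7b and Cox7c of complex IV. In complex V these were Atp5f1a, Atp5f1c, Atp5pb, Atp5pf, Atp5po, Atp5me, Atp5mg, Atp5mc1, Atp5mc2 and Atp5mc3. The others, such as Sdha and Cox8a, were not. Ndufv1 was -0.63 with length offsets, -0.65 with length and GC offsets and -0.37 on the short gene scale, and Ndufa5 was -0.54, -0.43 and -0.58. Ndufs1 and Ndufs8, the other core subunits, were lower on 3 scales and not called on the short gene scale, where they were at -0.03 and -0.07. Ndufa1, an X-linked anchor of the membrane arm, was lower in the TMM fit (-0.30) and higher on each of the other 3 (0.19, 0.32 and 0.13), so its direction rested on the scale. Ndufa10 was lower in the TMM fit and with length offsets (-0.07), and higher with length and GC offsets (0.14) and on the short gene scale (0.24). Ndufa4 was lower in the TMM fit and on the short gene scale and not called with either set of offsets.

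**Figure D3:**
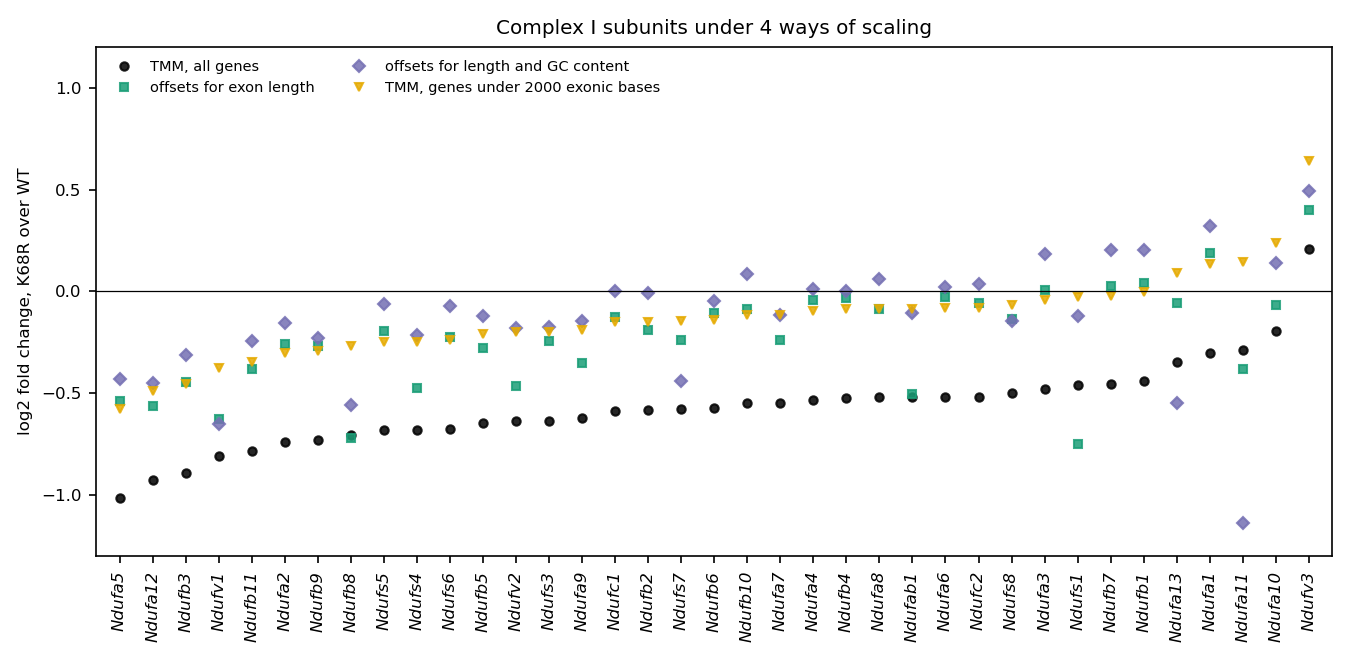
Log2 fold change (K68R over WT) of each of the 37 members, ordered by the TMM fit, under 4 ways of scaling: TMM over all genes tested, offsets for exon length, offsets for length and GC content, and TMM over genes under 2000 exonic bases. Points of Ndufa5, Ndufb3 and Ndufv1 stay under 0 and those of Ndufv3 above it on all 4, while those of Ndufa1 and Ndufa10 lie on both sides.

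Ndufa12, an N module subunit whose relative Ndufaf2 holds its place during assembly, had the widest spread of any member and was chosen for a closer reading after its values were seen. Its CPM was 36.6, 37.9 and 34.1 in K68R and 64.6, 56.9 and 84.5 in WT, so that WT replicate 3 stood well above the others. An annotated near copy on another chromosome, Ndufa12-ps, had CPM of 20.5, 16.99 and 18.1 in K68R and 33.9, 33.2 and 18.9 in WT. In WT replicate 3 the near copy was low where Ndufa12 was high. The sum of both was 57.1, 54.8 and 52.2 in K68R and 98.5, 90.1 and 103.4 in WT, with WT libraries much closer together. Ndufa12 alone fell with a log2 change of -0.92 (SE 0.19) at an edgeR adjusted p of 0.009. The call was lost on the other 3 scales, at -0.56 with length offsets, -0.45 with length and GC offsets and -0.49 on the short gene scale (edgeR adjusted p = 0.0535, 0.108 and 0.0745), and in the test against 1.5-fold (edgeR adjusted p = 0.0721). The summed counts fell with -0.83 at an edgeR adjusted p of 4.1e-17. Without WT replicate 3, Ndufa12 alone was at -0.77 (edgeR adjusted p = 1.2e-20). Near copies of other members, Ndufb4b, Ndufb4c, Ndufs5-ps, Ndufs6b, Ndufab1-ps, Ndufa11b and Ndufb11b, stayed under 1.6 CPM in all 6 libraries.

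**Figure D4:**
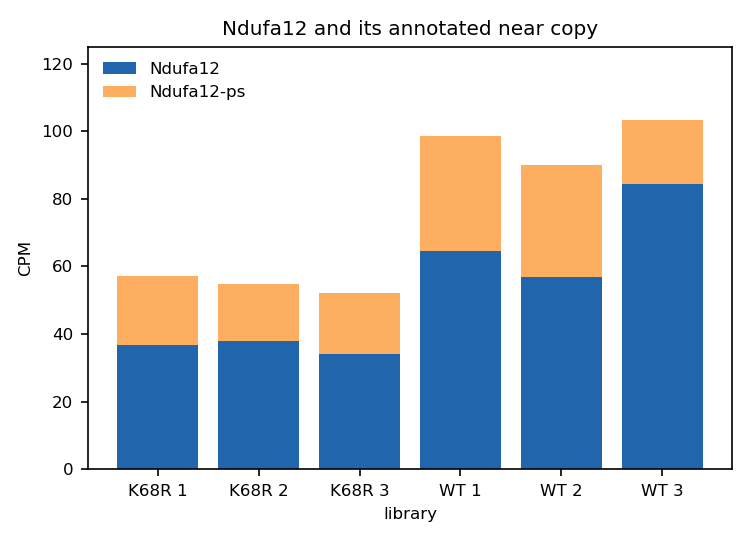
CPM of Ndufa12 (blue) and of its annotated near copy Ndufa12-ps (orange), stacked, in each of the 6 libraries. The stacked total runs from 52.2 to 57.1 in K68R and from 90.1 to 103.4 in WT, while the division between the copies differs in WT replicate 3.

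Reads were counted without strand, and 9 members share exonic bases with another annotated gene, so that reads from the shared stretch cannot be told apart. The share was 34.6% of exonic bases in Ndufa1, 29.6% in Ndufa13, 28.96% in Ndufb11, 27.7% in Ndufv2, 23.3% in Ndufb1 and 11.5% in Ndufa2, and 5.3% to 6.8% in Ndufa9, Ndufs7 and Ndufs1. All 9 fell, with a median log2 change of -0.58, and of the 28 members that share none, 27 fell, with a median of -0.56. Of the core, Ndufv1, Ndufs3 and Ndufs8 share none.

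Complex I is built by dedicated assembly factors that leave the finished enzyme. Of 20 listed, 19 were matched by symbol, and Coa1 was not matched. In this list 17 fell, none rose and 2 were not called, against 40.5% of all genes tested called lower and 40.8% higher. The median log2 change was -0.61, against -0.01 over all genes. Nubpl, which delivers iron-sulfur clusters to complex I, had CPM of 3.72, 4.23 and 3.89 in K68R and 9.02, 9.11 and 8.41 in WT. Ndufaf8, which stabilises Ndufaf5, had CPM of 9.49, 9.07 and 8.82 in K68R and 20.04, 18.2 and 17.6 in WT. Dmac1, a factor for the distal membrane arm, had CPM of 21.2, 18.6 and 21.4 in K68R and 38.8, 39.5 and 39.4 in WT. These were the largest falls of the list, and no K68R library reached a WT library in any of them. Nubpl fell 2.24-fold (edgeR adjusted p = 4.3e-16), Ndufaf8 2.05-fold (edgeR adjusted p = 4.0e-21) and Dmac1 1.93-fold (edgeR adjusted p = 2.7e-27). They were lower on all 4 scales, as were 18.8% of the genes of all lengths with a value on each. On the short gene scale the list as a whole had 11 lower and 5 higher, against 19.0% and 60.0% of all genes tested. Ndufaf5, which modifies Ndufs7, fell by 0.66, and Acad9 and Ecsit, partners in an early membrane arm intermediate, fell by 0.24 and 0.15. Tmem70 (-0.07, edgeR adjusted p = 0.071) and Dmac2 (0.03, edgeR adjusted p = 0.75) did not pass the test.

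The nuclear subunits of the other enzymes of oxidative phosphorylation were read in the same way. All 40 listed for complexes II to V fell in the TMM fit, against 40.5% of all genes tested, with a median log2 change of -0.58, against -0.57 for complex I, and with a range of -0.97 to -0.18. The medians were -0.52 for complex II, -0.58 for complex III, -0.52 for complex IV and -0.64 for complex V, and differences between complexes were not tested. With length offsets 31 of the 40 were lower and 2 higher, against 48.7% and 31.7% of all genes, and the median was -0.24 against -0.21. With length and GC offsets 25 of the 38 with a GC value were lower and 4 higher, against 42.5% and 33.7%, and the median was -0.12 against -0.07. On the short gene scale 25 were lower and 5 higher, against 19.0% and 60.0% of genes of all lengths, and the median was -0.15 against 0.43. The median exonic length of the 40 was 782 bases. All genes tested of 600 to under 1000 bases had a median of -0.13 on this scale.

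The mitochondrially encoded subunits of complex I, read after their values were seen, moved the other way. ND1, ND2, ND4, ND5 and ND6, which belong to the proton-pumping membrane core, rose by 0.33, 0.99, 0.93, 1.44 and 1.504 on the log2 scale. They were also higher with length offsets and on the short gene scale. ND6 lies on the minus strand and the others on the plus strand. Reads were counted without strand, so transcripts of either strand over ND6 cannot be told apart here. ND3, at most 1.80 CPM in any library, fell by 2.13, and ND4L was under 1.4 CPM, with a log2 change of 1.09 and overlapping libraries. The libraries were made from poly(A) RNA, and the relation between nuclear and mitochondrial transcripts was not tested.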

How the data were processed

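Per the labels' protocols, Triazol and a Qiagen kit were used to isolate RNA (integrity number above 4), and stranded poly(A) libraries were prepared. The submitters' processing notes name bcl2fastq, HISAT2 2.2.1, SAMtools, featureCounts 2.0.6 and build mm39. The table deposited by the authors gives, per gene, the number of read pairs as unnormalized counts and the merged exonic length. Per the file headers, pairs were counted over exons of the RefSeq annotation without a strand option. The sources used here do not state how reads were trimmed.

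The counts entered edgeR 4.0.16 in R 4.3.3 (filterByExpr, TMM, robust quasi-likelihood F test, Benjamini-Hochberg adjusted p under 0.05 over 16730 genes, prior count of 2 in log2 values). Alternatives used DESeq2 1.42.0, limma 3.58.1 (voom) and offsets fitted with mgcv 1.9.3. GC content came from GENCODE transcripts of GRCm38 joined by symbol, for 93.6% of genes tested and all 37 members. On simulated counts of 16730 genes with 200 changed, the K68R against WT fit recovered 78% of those changed 1.5-fold and 93% of those changed 2-fold, and called 0.0307% of unchanged genes. Among genes tested in the 6 libraries, 40.5% were called lower and 40.8% higher. The fit was not tested on counts with that many changed genes. A floor of 3 counts was 0.0737 to 0.115 CPM, for counting error only. Libraries were grouped by title, and since nothing says that replicates came from separate embryos or cultures, the p-values reflect the spread among these libraries alone, part of which may be technical. Libraries of a genotype differed by more than sampling noise (chi-square per gene of 1.85 to 2.29) and were kept apart.

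Members and lists were chosen with earlier results of these data known. All 6 values are given for core subunits, the 3 members of each accessory group with the smallest adjusted p, those not lower, those with extreme length or change, the 3 most changed assembly factors and Sod2 as means. Marker lists were fibroblast, macrophage, endothelial, epithelial, adipocyte, skeletal muscle, erythroid and neural.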

Additional observations from a re-analysis of the deposited data

How the results depend on the processing

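All 37 subunits kept their direction and call with DESeq2, its size factors in edgeR, upper quartile scaling, limma-voom, no filter, a 1 CPM filter, an adjusted p under 0.01, and without each library. Median changes of all members, core, accessory and assembly genes were -0.69, -0.72, -0.66 and -0.73 with upper quartile scaling, where the median of all genes was -0.12; without a filter they were -0.61, -0.65 and -0.59 for the first 3, and the median of all genes was 0.15. Leaving out each library in turn gave medians of -0.60 to -0.54 for all members (-0.54 without K68R replicate 3) and -0.60 to -0.54 for accessory genes (-0.60 without WT replicate 3).

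On the short gene scale, 3176 of all genes were lower, and 5 members were higher and 23 lower (accessory, 5 and 19; assembly factors, 5 and 11), with medians of -0.14, -0.17 (core), -0.11 (accessory) and -0.18 (assembly). Ndufa1 (0.13), Ndufa10 (0.24), Ndufa11 (0.15) and Ndufa13 (0.088) turned positive. With length offsets, 2 members were higher, both accessory, and medians were -0.22, -0.35 (core) and -0.19 (accessory); Ndufa1 (0.19), Ndufa3 (0.0064), Ndufb1 (0.042) and Ndufb7 (0.029) turned positive. With length and GC offsets, 7 were higher and 19 lower (accessory, 7 and 13; assembly factors, 2 higher), and medians were -0.11, -0.18 (core), -0.061 (accessory) and -0.31 (assembly). The genes that turned positive were Ndufa1 (0.32), Ndufa10 (0.14), Ndufa3 (0.18), Ndufa4 (0.011), Ndufa6 (0.020), Ndufa8 (0.062), Ndufb1 (0.20), Ndufb10 (0.087), Ndufb4 (0.0027), Ndufb7 (0.20), Ndufc1 (0.0033) and Ndufc2 (0.036). Tested against 1.5-fold, 4365 of all genes were higher and 2490 lower, with 12 members lower and 0 higher (core, 2 lower; accessory, 10 lower and 0 higher; assembly factors, 7 lower). Without genes that share exonic bases, 3 core genes were left, all lower, with a median of -0.64. These shifts between scales were not tested for a cause.

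Replicate numbers did not pair the libraries (correlations of -0.03 to 0.02 between deviations of K68R and WT libraries). With the replicate number as a block, 36 members were lower and 1 higher, with a median of -0.57; Ndufa12 was then at -0.92 (edgeR adjusted p = 0.046).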
